A study of Capra hircus with 4 samples.

Results

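The histone genes of goat secondary hair follicle stem cells, grown in culture, were followed between 2 phases of cashmere growth (Capra hircus). Secondary follicles make the fine undercoat of these animals. The histone genes are the 66 of 20326 genes in the deposited tables whose symbol has a histone stem or whose description opens with a histone name. In practice the descriptions chose all 66. The choice used no measured value. Of the 66, 46 were replication-dependent histones, 17 were replacement variants, 1 was described only as histone H3 and put in neither class, and 2 are other proteins caught by their wording, namely the transcription factor HINFP and the mitotic kinase GSG2 (haspin).

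Mid anagen cells, taken in October, gave 1 female and 1 male library, and these were set against early anagen cells, taken in April, which also gave 1 female and 1 male library. All 4 were cultured from dorsal skin, and no treatment, age or number of animals is stated. The labels call the libraries of a phase biological replicates, but nothing says that they came from separate cultures, so p-values measure only the spread between these libraries. The study asks what changes in these cells as the cashmere coat grows.

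Histones package DNA into nucleosomes, built from the core histones H2A, H2B, H3 and H4 and closed by the linker histone H1. Replication-dependent genes lie in clusters of short, mostly intronless genes and are transcribed in S phase to coat newly copied DNA, and their mRNAs end in a stem-loop bound by SLBP in place of a poly(A) tail. Replacement variants such as H3.3, H2A.Z and H2AX are made from single genes with polyadenylated mRNAs, mostly through the whole cell cycle, and are placed by their own chaperones. H2AX, which marks DNA breaks when phosphorylated, can end either way. Whether poly(A) RNA was selected for these libraries is not given in the sources used here, and the level of genes without a tail depends on that step.

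All values are deposited levels, a length-normalised abundance per gene that can be compared between genes, and their read depth is unknown. Between genes with and without a poly(A) tail, such a comparison also depends on poly(A) selection. Library totals were 933211 and 844960 in the female and male mid libraries and 1068429 and 1186966 in the female and male early libraries. Each summed histone level below was therefore also taken after scaling the libraries to a common total of 1000000. The sums of the marker, S phase, processing and chaperone lists were not scaled. The test took the 12486 genes that reached 1 in 2 or more libraries. The keratinocyte genes KRT5 and KRT14 were among the highest in every library, and KRT14 was at 9603 and 8956 in the mid and 20587 and 23511 in the early libraries. LHX2, a follicle stem cell factor, was at 31.7 and 32.1 in the mid and 9.54 and 6.94 in the early libraries, while CD34, a bulge marker of mouse follicles, was at 0.136 or below in every library. Markers of fibroblasts also differed by phase. The 12 listed summed to 457 and 411 in the mid and 21.9 and 82.3 in the early libraries. Of the 9 that passed the filter, 7 did so through the mid libraries alone, which fixed their direction. The others, FN1 and VIM, were also higher in both mid libraries, beside 31.5% of all tested genes. The immune list summed to 18.7 and 13.0 in the mid and 8.87 and 7.96 in the early libraries. In it CD14 was at 12.6 and 8.52 against 3.28 and 2.49, CD68 and CD79A overlapped between the phases, and PTPRC and TYROBP were listed at 0 in all 4. The endothelial list summed to 11.8 and 11.3 in the mid and 4.27 and 4.55 in the early libraries. ERG and EGFL7 were higher in both mid libraries, but ERG passed the filter through the mid libraries alone, which fixed its direction. Below the filter, PECAM1 was lower in both mid libraries, at 0.0664 and 0.0777 against 0.313 and 0.278. KDR, TEK and VWF, also below it, were higher in both, and CDH5 was at 0 in all 4. The melanocyte list summed to 6.62 and 7.34 in the mid and 5.80 and 7.08 in the early libraries, mostly from MITF and PMEL, with DCT at 0 in all 4, and germ cell markers to under 1 in each library. The part of these cell types in the histone results was not tested.

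Replacement variants supplied nearly all of the deposited histone level in both phases. This share depends on whether poly(A) RNA was selected, which is not given. The 17 variants summed to 1473 and 1327 in the female and male libraries of mid anagen and to 2123 and 1922 in the female and male libraries of early anagen. The 46 replication-dependent genes together reached 35.3 and 28.5 in the mid libraries and 74.8 and 117 in the early libraries. Variants were therefore 97.6% and 97.9% of the summed histone level at mid anagen, against 96.6% and 94.2% at early anagen. The gap between the phase means was 2.36 points, 1.17 without the early male library and 0.25 without the single H2B gene LOC102182181. Both classes were lower in both mid libraries than in both early ones, and this held on a common total, at 1579 and 1571 against 1987 and 1619 for the variants and at 37.8 and 33.7 against 70.0 and 98.9 for the replication-dependent genes. In RNA from whole cultures, fewer cells making a histone mRNA and less of it per cell cannot be told apart.

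The family make-up of the histone level differed between the phases. H2A genes made up 31.6% and 31.6% of it in the mid libraries and 48.4% and 49.5% in the early libraries. H3 genes made up 63.2% and 64.5% in the mid and 44.8% and 42.7% in the early libraries. The H2A sum was 477 and 428 in the mid libraries, against 1064 and 1009 in the early libraries, a ratio of means of 0.437. The H3 sum was 954 and 874 in the mid and 985 and 872 in the early libraries, so the groups overlapped, but on a common total it was higher in the mid libraries, at 1022 and 1035 against 922 and 734. The difference in make-up came with H2A.Z alone at 22.8% and 22.0% of the histone level at mid anagen and 36.5% and 37.3% at early anagen. H2B summed to 28.8 and 22.1 in the mid and 59.9 and 99.3 in the early libraries, H1 to 45.3 and 28.1 against 84.2 and 54.9, and H4 to 3.75 and 3.21 against 4.55 and 4.43. The H1 and H4 sums of the phases overlapped on a common total.

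**Figure D1:**
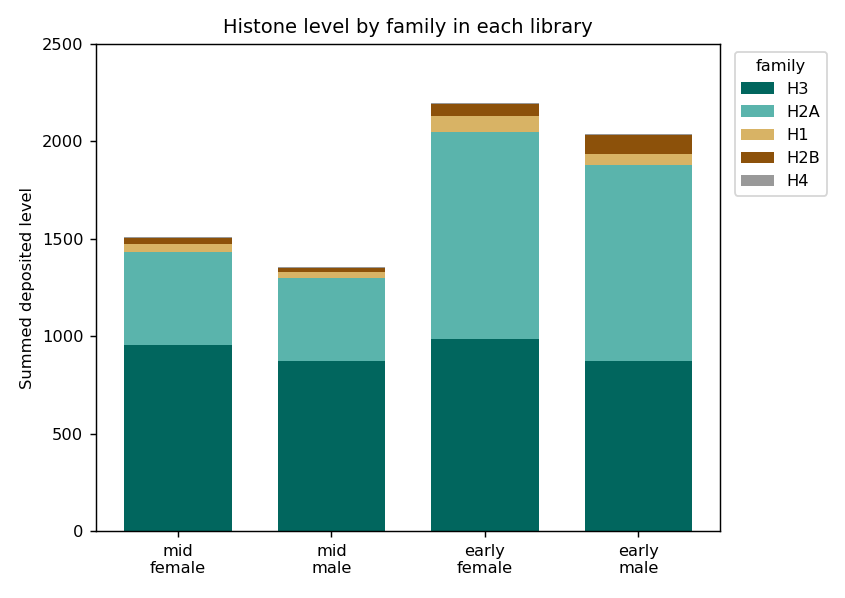
Summed deposited level of the histone genes (y axis, linear) in each library (x axis), stacked by histone family. The H3 block is of similar height in all 4 libraries, at 872 to 985, while the H2A block is 477 and 428 in the mid and 1064 and 1009 in the early libraries.

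None of the 20 histone genes that could be tested passed the test between phases. In limma with adjustment over all genes, 0 of 20 had an adjusted p under 0.05, beside 38 of 12486 genes, which is 0.304%. At an unadjusted p under 0.05, 8 of the 20 were lower and 1 was higher at mid anagen, beside 14.7% of all tested genes lower and 13.2% higher. In 12 of the 20 both mid libraries were below both early ones, and in 2 both were above. Over all tested genes these shares were 30.9% and 31.5%. Genes of short span were lower more often than that. Of the 235 tested genes with a span up to 1500 bp, 92 were lower and 6 higher under 0.05 unadjusted (limma). Both mid libraries were below both early ones in 124 of these 235 and above in 22. With the sex of the library as a second term, 8 histone genes were called lower and 0 higher, beside 6.93% of all genes called lower. After scaling to a common total 3 were called lower, beside 0.71% of all genes. Of these, H2A type 2-C (LOC102171676) passed the filter only through the early libraries. Without it, 7 were lower under 0.05 unadjusted, 11 had both mid libraries below both early ones, 7 were called with the sex term and 2 on a common total. The values of both fits are given with the alternatives. Leaving out the mid female library gave 4 calls, all lower, beside 3.06% of all genes called lower. Leaving out the mid male library gave 3 lower and 1 higher, beside 1.46% and 1.23% of all genes, and omitting an early library gave 0 over all genes, with 5 (female omitted) and 9 (male omitted) histone genes under 0.05 unadjusted (limma). The median log2 fold change of the 20 was -0.52, against 0.01 over all tested genes and -0.43 over the 235 tested genes whose span in the RefSeq table is up to 1500 bp. With the trend of level with gene span removed, the median was -0.14 for the tested replication-dependent genes and -0.16 for the variants. Fold changes throughout are mid over early on the log2(level + 1) scale, and understate the change of low genes.

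The 4 H2A variants among the members were all lower in both mid libraries, beside 30.9% of all tested genes. Of the tested genes with a span up to 1500 bp, 124 of 235 were lower in this way. H2A.J has such a short span, and H2A.Z, H2A.V and H2AX have longer ones. H2A.Z (LOC102183306), a variant of promoters and regulatory regions, was at 344 in the female and 298 in the male mid library, against 802 in the female and 761 in the male early library. It was the most abundant histone gene of the early libraries, and its log2 fold change was -1.28 (SE 0.20, limma adjusted p = 0.0700, n = 2 per phase). The 95% interval ran from -1.78 to -0.78. The related H2A.V gene (LOC106502044) was at 69.2 and 73.4 in the female and male libraries of mid anagen, against 136 and 134 in the female and male libraries of early anagen. Its libraries of a phase differed by a few units, and its log2 fold change was -0.92 (SE 0.15, limma adjusted p = 0.0711).

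H2AX (LOC108637680), the variant of the DNA damage response, was at 18.4 in the female and 23.2 in the male mid library, against 46.0 in the female and 44.4 in the male early library. With a limma adjusted p of 0.0694 it had the smallest p of the tested histone genes, and its log2 fold change was -1.09 (SE 0.17). H2A.J (LOC108636046), a variant that accumulates in senescent human fibroblasts, was at 44.5 and 31.8 in the mid libraries and 72.2 and 59.8 in the early libraries. The groups did not overlap, and its log2 fold change of -0.79 had a limma adjusted p of 0.101. Rescaled to a common total, the log2 fold changes of H2A.Z, H2AX, H2A.V and H2A.J kept their sign, and H2A.Z passed, at -0.94 (limma adjusted p = 0.0468). With the trend of level with gene span removed, H2A.Z was at -0.998, H2A.V at -0.85, H2AX at -0.77 and H2A.J at -0.25, and none passed.

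H1.0 (LOC102178051), a linker histone that builds up in cells that leave the cycle, was the only H1 variant among the members. It was at 44.4 in the female and 26.7 in the male mid library, against 82.6 in the female and 53.0 in the male early library. The female library was the higher of each phase, and the phases did not overlap as deposited, and the log2 fold change was -0.92 (SE 0.32, limma adjusted p = 0.143). It was -0.57 without the mid male and -0.61 without the early female library. With the span trend removed it was -0.50 (limma adjusted p = 0.319). On a common total the phases did overlap, at 47.6 and 31.6 in the mid and 77.3 and 44.7 in the early libraries.

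**Figure D2:**
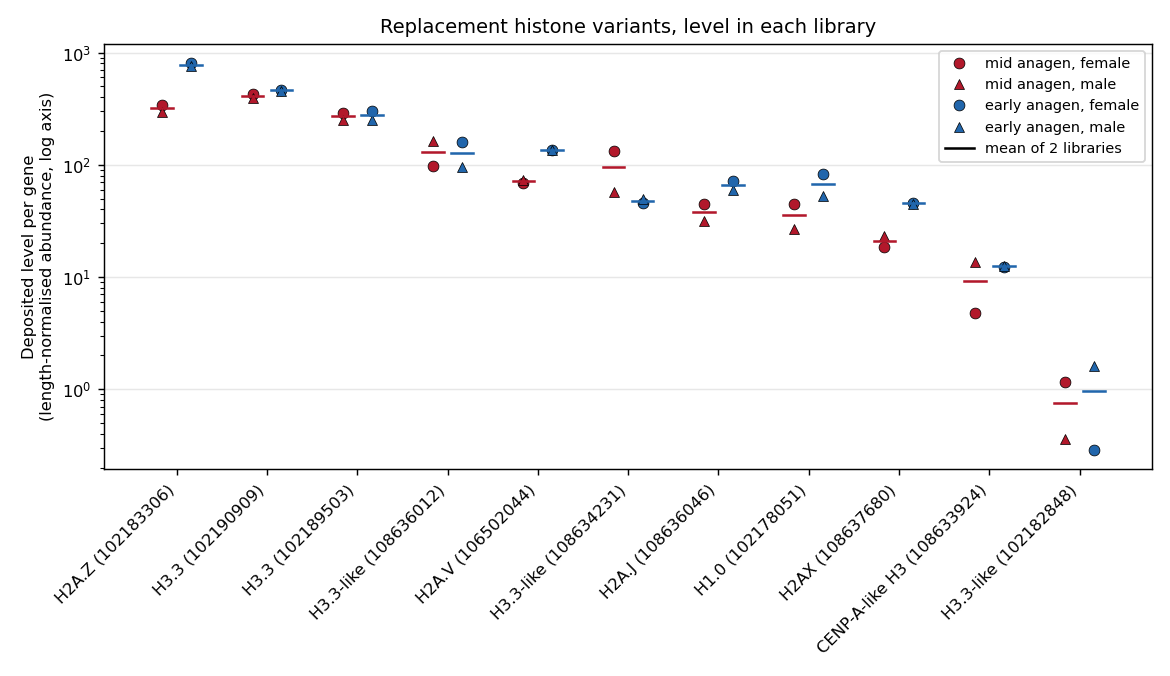
Deposited level (y axis, log scale) of the 11 replacement variants that passed the filter, by gene, with mid anagen left of early anagen, circles for female and triangles for male libraries and a bar at the mean of 2. H2A.Z, H2A.V, H2A.J, H1.0 and H2AX have both mid libraries below both early ones, while the main H3.3 genes LOC102190909 and LOC102189503 differ little.

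H3.3, the variant laid down at active genes and wherever nucleosomes are lost outside replication, had smaller differences, although the contrast with the H2A variants was not tested. Its 2 main genes were LOC102190909, at 425 and 390 in the female and male libraries of mid anagen against 462 and 459 in the female and male libraries of early anagen, and LOC102189503, at 291 and 249 in the mid against 303 and 249 in the early libraries. The log2 fold changes were -0.18 (95% interval -0.64 to 0.29) and -0.03 (-0.53 to 0.47), with limma adjusted p-values of 0.571 and 0.943. Both turned positive on a common total, at 0.17 and 0.31, and with the span trend removed, at 0.04 and 0.09. The lower end of each interval allows a decrease, so the data do not show that H3.3 was equal in both phases.

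Another 8 genes are described as H3.3-like or H3.3C. LOC108636012 was at 97.4 in the female and 162 in the male mid library, against 159 in the female and 95.9 in the male early library, so the phases overlapped. LOC108634231 was at 133 in the female and 57.1 in the male mid library, against 46.0 in the female and 49.9 in the male early library (log2 fold change 0.85, SE 0.39, limma adjusted p = 0.221). The value was 0.25 without the mid female library and 1.45 without the mid male library. LOC102182848, at 1.15 and 0.361 in the mid and 0.287 and 1.63 in the early libraries, passed the filter through 1 library of each phase. The other 5 were at 0.914 or below in every library, and LOC102191748 and LOC108633554 were listed at 0 in all 4. Genes of such like description may share reads, which the quantification has to divide between them, so the level of any single H3.3 gene is uncertain. Summed over all 10, H3.3 reached 948 and 860 in the female and male libraries of mid anagen and 971 and 857 in the female and male libraries of early anagen. The log2 fold change of the sum was -0.01 (SE 0.22, 95% interval -0.58 to 0.55, limma adjusted p = 0.974). This sum was higher at mid anagen on a common total, at 1016 and 1018 against 909 and 722.

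Of the other variants, LOC108633924, described as a histone H3-like centromeric protein A, was at 4.79 in the mid female library and 13.6 in the mid male library, against 12.3 and 12.6 in the female and male libraries of early anagen. Only the mid female library stood low, so the phases overlapped, and the log2 fold change was -0.55 (SE 0.43, limma adjusted p = 0.436). The value was -1.22 without the mid male library and 0.12 without the mid female library. The gene with the symbol CENPA, the histone H3 of centromeres, lay outside the choice by its description. It was at 22.7 and 29.4 in the mid and 49.5 and 50.1 in the early libraries, and its log2 fold change was -0.92 (SE 0.17, limma adjusted p = 0.0741). The subacrosomal H2B variant LOC102175243, a sperm protein gene, was listed at 0 in all 4 libraries.

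The macro-H2A genes, whose proteins carry a large extra domain and are enriched in silent chromatin, also lay outside the choice by the wording of their descriptions. Macro-H2A.1 (LOC102178535) was at 83.8 and 87.2 in the mid libraries and 97.5 and 88.2 in the early libraries (log2 fold change -0.12, SE 0.15, limma adjusted p = 0.649). Macro-H2A.2 (LOC102191766) was at 7.40 and 7.12 in the female and male libraries of mid anagen, against 2.27 and 3.75 in the female and male libraries of early anagen. Both mid libraries were above both early ones, and the log2 fold change was 1.07 (SE 0.23, limma adjusted p = 0.0792), which is opposite in sign to H2A.Z, H2AX, H2A.V and H2A.J.

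Replication-dependent genes were at low levels in every library. Of the 46, 6 and 7 were at 1 or more in the female and male libraries of mid anagen, and 11 and 15 in the female and male libraries of early anagen. Those listed at 0 numbered 19 and 17 in the mid and 9 and 11 in the early libraries, and 5 were at 0 in all 4. In the order of the RefSeq goat table (ARS1.2), 36 of the 46 lie in a single neighbourhood with no replacement variant in it, and another 7 lie in a second with the gene described only as histone H3. Clustered histone genes of mammals are near-identical copies, so reads may be divided between them, and the level of any single one is uncertain.

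Only 9 of the 46 passed the filter, 1 of them through the early libraries alone, which fixed its direction. Among the 9, 6 had both mid libraries below both early ones, 1 had both above and 2 overlapped. Of all tested genes, 30.9% lay below and 31.5% above in this way. The median log2 fold change of the 9 was -0.49, with -0.39 between the female and -0.30 between the male libraries. For the 11 tested replacement variants it was -0.55, with -0.70 between the female and -0.86 between the male libraries. The difference between the classes was not tested, and each held genes well below its median and genes above 0. These medians turn on the filter and the pseudocount, whose effect is given with the alternatives.

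LOC102182181, an H2B type 1 gene, dominated the class. It was at 10.4 in the female and 4.86 in the male mid library, against 37.6 in the female and 74.3 in the male early library, a ratio of means of 0.136. The early male library was the highest and the mid male the lowest, and the phases lay far apart, and the log2 fold change was -2.72 (SE 0.43, limma adjusted p = 0.0711). It passed on a common total, at -2.41 (limma adjusted p = 0.0406). With the span trend removed it did not pass, at -2.08 (limma adjusted p = 0.0767). This gene alone made up 29.4% and 17.0% of the replication-dependent sum in the mid libraries and 50.2% and 63.3% in the early libraries. Without it, the other 45 genes summed to 24.9 and 23.7 in the mid and 37.2 and 43.1 in the early libraries.

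H2A type 2-C (LOC102171676) was at 0.173 and 0.141 in the mid libraries, against 1.48 and 1.73 in the early libraries (log2 fold change -1.17, SE 0.22, limma adjusted p = 0.0741). It is the gene that reached 1 only at early anagen. With the span trend removed its log2 fold change was -0.55 (limma adjusted p = 0.254). H2B type 1-M (LOC102184572) was at 0.985 and 1.07 in the mid and 2.91 and 2.52 in the early libraries (log2 fold change -0.87, SE 0.19, limma adjusted p = 0.0834). H2B type 2-F (LOC102173518) was at 1.14 and 0.998 in the mid and 3.49 and 1.31 in the early libraries, with the early female library standing high. A second H2B type 1 gene, LOC102184017, was at 2.42 and 1.13 in the mid and 2.61 and 2.97 in the early libraries. The linker histone H1.3 (LOC102180549) was at 0.801 and 1.18 in the mid and 1.35 and 1.68 in the early libraries, also without overlap as deposited. The log2 fold changes of H2B type 2-F, LOC102184017 and H1.3 were -0.64, -0.49 and -0.34 (limma adjusted p = 0.285, 0.302 and 0.357). On a common total they were -0.45, -0.26 and -0.15, and with the span trend removed -0.53, 0.032 and -0.14.

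Other replication-dependent genes did not follow this order. H2B type 2-E (LOC102171395) was at 9.31 in the female and 9.61 in the male mid library, against 5.64 in the female and 7.62 in the male early library. Its log2 fold change was 0.47 (SE 0.18, limma adjusted p = 0.176), and it was the only tested replication-dependent gene with both mid libraries above both early ones. H4 (LOC106503502), at 3.45 and 3.12 in the mid and 3.48 and 3.38 in the early libraries, and H2B type 1-N (LOC102179758), at 2.28 and 2.45 in the mid and 2.68 and 2.14 in the early libraries, overlapped between the phases. Their log2 fold changes were -0.05 and -0.02, and both turned positive on a common total, at 0.22 and 0.22, and with the span trend removed, at 0.32 and 0.12.

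**Figure D3:**
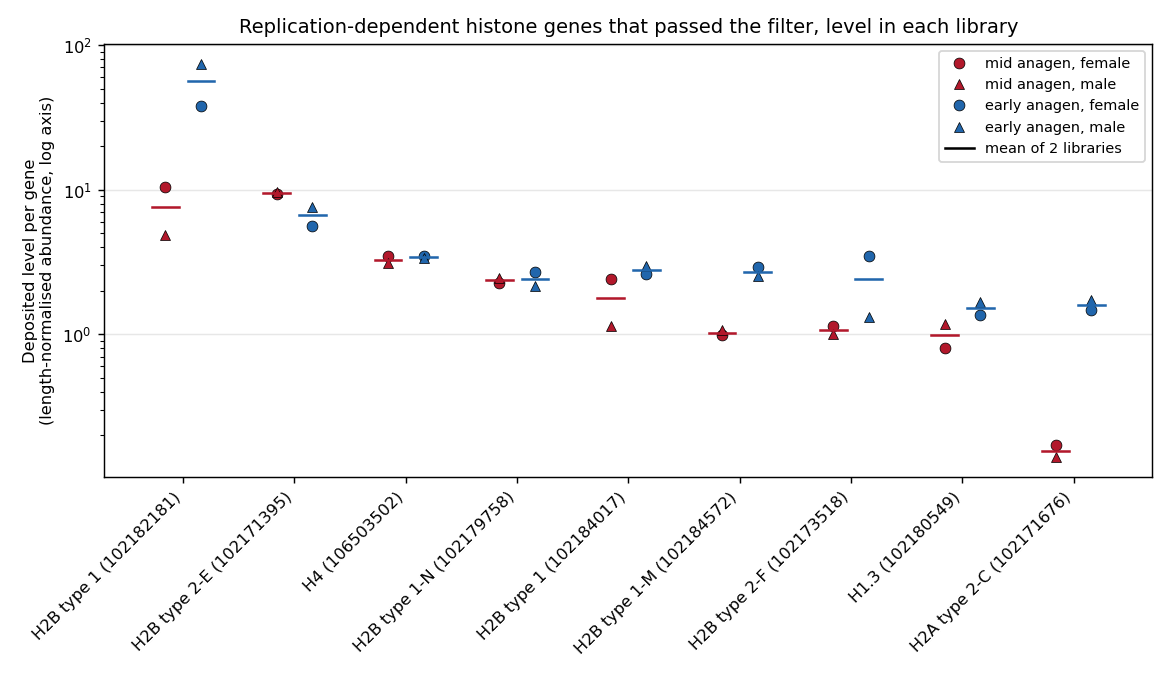
Deposited level (y axis, log scale) of the 9 replication-dependent genes that passed the filter, by gene, with mid anagen left of early anagen, circles for female and triangles for male libraries and a bar at the mean of 2. The H2B type 1 gene LOC102182181 spans 4.86 to 74.3, H2B type 2-E is the only gene with both mid libraries on top, and most others lie under 4.

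The 37 replication-dependent genes that were not tested lay between 0 and 0.574 in the mid libraries and between 0 and 2.62 in the early libraries. Their mean as deposited was lower at mid anagen for 31, higher for 1 and 0 in both phases for 5. The shares over all genes below the filter were not taken, so these counts have no background beside them. None reached 1 in a mid library, and 8 did so in 1 early library. Together they summed to 4.36 and 3.96 in the female and male libraries of mid anagen, against 13.6 and 19.8 in the female and male libraries of early anagen. On a common total the sums were 4.67 and 4.68 in the mid and 12.7 and 16.6 in the early libraries, so the phases stayed apart. By family, replication-dependent H2A summed to 1.19 and 1.26 in the mid and 7.17 and 9.54 in the early libraries, and replication-dependent H3 to 0.630 and 0.421 in the mid and 1.59 and 2.29 in the early libraries. On a common total H2A was at 1.27 and 1.49 against 6.71 and 8.04, and H3 at 0.675 and 0.499 against 1.49 and 1.93. With depth unknown, no counting error can be given for single genes at such levels. Of the linker histones outside the choice, H1.4 (LOC102184297) was at 0.502 and 0.568 in the mid and 1.18 and 2.19 in the early libraries, and passed the filter through the early libraries alone. H1.5 was at 0.314 and 0.196 in the mid, against 0.686 and 0.462 in the early libraries, and H1.1 and H1.6 were at 0.152 or below.

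**Figure D4:**
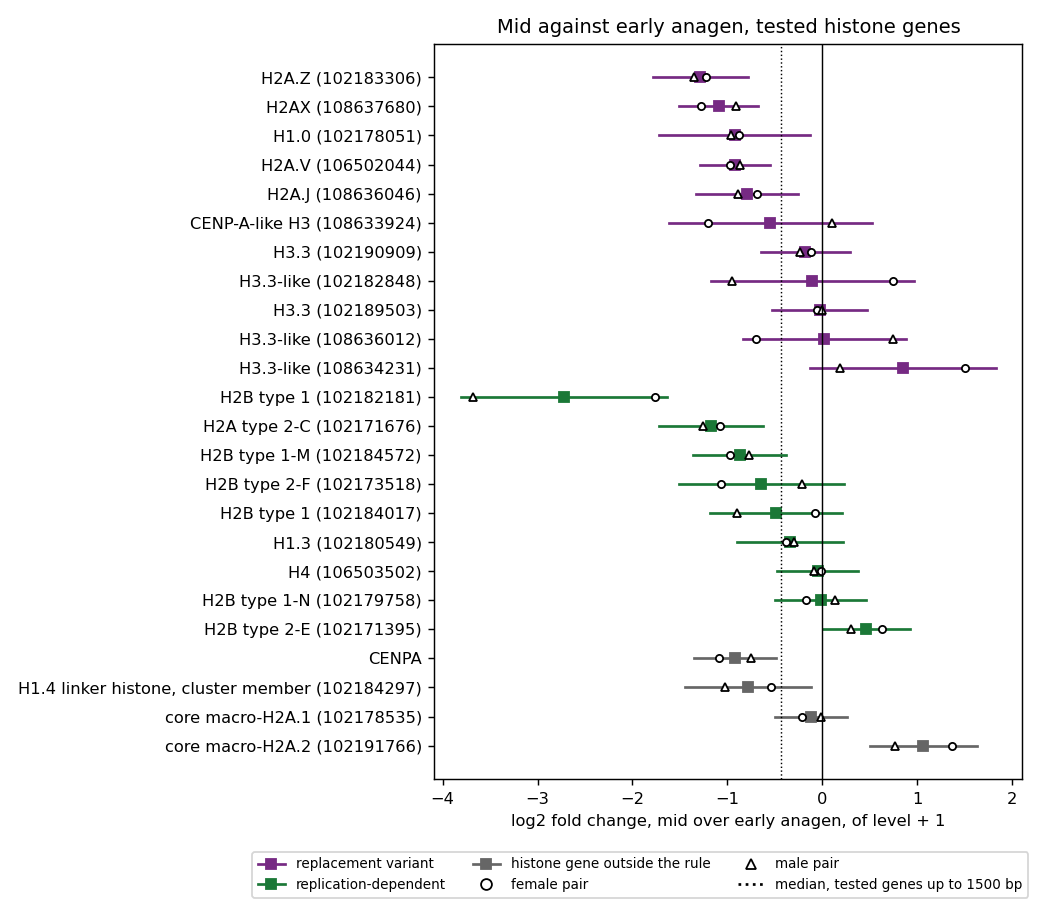
Log2 fold change of level + 1, mid over early anagen (x axis), of each tested histone gene (y axis), as squares with 95% intervals from limma, with the female pair as circles, the male pair as triangles and a dotted line at the median of tested genes of short span. The H2A variants, H1.0, CENPA and H2B type 1 LOC102182181 lie left of 0, the main H3.3 genes LOC102190909 and LOC102189503 near it, and the H3.3-like gene LOC108634231 at 0.85 and macro-H2A.2 at 1.07 to its right.

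The S phase genes are mainly replication enzymes and licensing factors that are active when replication-dependent histones are made. Genes such as E2F1, E2F8, UHRF1 and SLBP are also on the list, and SLBP is counted again among the histone mRNA genes below. The list was lower in both mid libraries for 30 of 30, with a median log2 fold change of -0.80. None of the 30 passed over all genes in limma, and 27 were lower under 0.05 unadjusted. Of all tested genes, 30.9% had both mid libraries below both early ones, and 14.7% were lower under 0.05 unadjusted (limma). The list summed to 925 and 1260 in the female and male libraries of mid anagen, against 1951 and 2084 in the female and male libraries of early anagen. FEN1, the flap nuclease of lagging strand synthesis, was at 17.7 and 24.7 in the mid and 43.2 and 47.2 in the early libraries (log2 fold change -1.07, limma adjusted p = 0.0726). PCNA, the sliding clamp, had a log2 fold change of -1.06, RRM2, a ribonucleotide reductase subunit, of -0.94, and RFC4, a clamp loader subunit, of -0.71. The part of these genes, or of the number of cells in S phase, in the histone levels was not tested.

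Genes that make and process histone mRNA were lower in both mid libraries for 15 of 19 found, beside 30.9% of all tested genes. Their median log2 fold change was -0.32. Of the 19, 0 passed and 6 were lower under 0.05 unadjusted, beside 14.7% of all tested genes (limma). The S phase, processing and chaperone lists were not taken on a common total. On that scale the median log2 fold change of all genes was 0.32 in place of 0.01. SLBP, which binds the histone stem-loop, was at 60.2 and 71.7 in the female and male libraries of mid anagen, against 94.0 and 89.9 in the female and male libraries of early anagen, and its log2 fold change was -0.48 (SE 0.16, limma adjusted p = 0.139). CDK2, the kinase that switches on histone transcription at the start of S phase, was at 16.5 and 18.7 in the mid and 30.7 and 35.8 in the early libraries (log2 fold change -0.87, limma adjusted p = 0.0724). Its partner cyclin CCNE1 had a log2 fold change of -0.65 and LSM10, a subunit of the U7 particle that directs the cut behind the stem-loop, one of -0.45. CASP8AP2, a scaffold of the histone locus body, was at 8.29 and 8.499 in the mid and 8.17 and 7.91 in the early libraries, and is named after its values were seen. NPAT, the coactivator of histone genes, was not found by its symbol. HINFP, which drives histone H4 genes and is counted among the 66 by its description, was at 18.2 and 18.5 in the mid and 19.9 and 20.5 in the early libraries, and GSG2, which phosphorylates histone H3 in mitosis, at 5.39 and 7.51 against 9.19 and 10.8.

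Chaperones that deliver new histones to replicating DNA were lower in both mid libraries for 15 of 17, beside 30.9% of all tested genes. Their median log2 fold change was -0.56. The test was passed by 0 of 17, and 11 were lower under 0.05 unadjusted, beside 14.7% of all tested genes (limma). HAT1, which acetylates new histone H4, was at 34.0 and 36.3 in the female and male libraries of mid anagen, against 66.3 and 79.2 in the female and male libraries of early anagen (log2 fold change -1.02, SE 0.16, limma adjusted p = 0.0700). IPO4, an importin that carries H3 and H4, had a log2 fold change of -1.01, RBBP7, a histone-binding partner of HAT1, of -0.74, and CHAF1B, a subunit of the assembly factor CAF-1, of -0.57.

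The list of variant chaperones also holds CENPA, itself a histone. In 12 of the other 20 genes both mid libraries were below both early ones, and in 6 above. The shares over all tested genes were 30.9% and 31.5%. The median log2 fold change of the 20 was -0.32, and 0 of 20 passed the test. Under 0.05 unadjusted, 7 were lower and 1 higher, beside 14.7% and 13.2% of all tested genes (limma). With CENPA the median was -0.36. The centromere loaders were at the low end. HJURP, the chaperone of CENPA, was at 38.0 and 47.9 in the mid and 95.1 and 103 in the early libraries (log2 fold change -1.19, SE 0.17, limma adjusted p = 0.0639), MIS18A had a log2 fold change of -0.98 and OIP5 one of -1.19. Of the genes of H3.3 loading, given after their values were seen, ATRX was at 10.3 and 9.63 in the mid and 7.20 and 6.44 in the early libraries, DAXX at 47.1 and 42.9 against 40.3 and 39.98, and UBN1 at 21.9 and 22.5 against 18.5 and 18.6, with UBN2 at a log2 fold change of 0.39. DEK, also a chaperone of H3.3, was at 114 and 125 in the mid and 148 and 163 in the early libraries. Of the genes of H2A.Z exchange, given in the same way, SRCAP had a log2 fold change of 0.20 and VPS72 of 0.23, against -0.70 for RUVBL1, -0.68 for RUVBL2, -0.60 for ACTL6A, -0.38 for ACTR6, -0.36 for ZNHIT1 and -0.17 for YEATS4. EP400 was at 0.12 and INO80 at -0.11, and their phases overlapped. ANP32E, which removes H2A.Z, was at 26.7 and 30.1 in the mid and 46.8 and 40.4 in the early libraries. HIRA and CABIN1 were not found by their symbols.

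**Figure D5:**
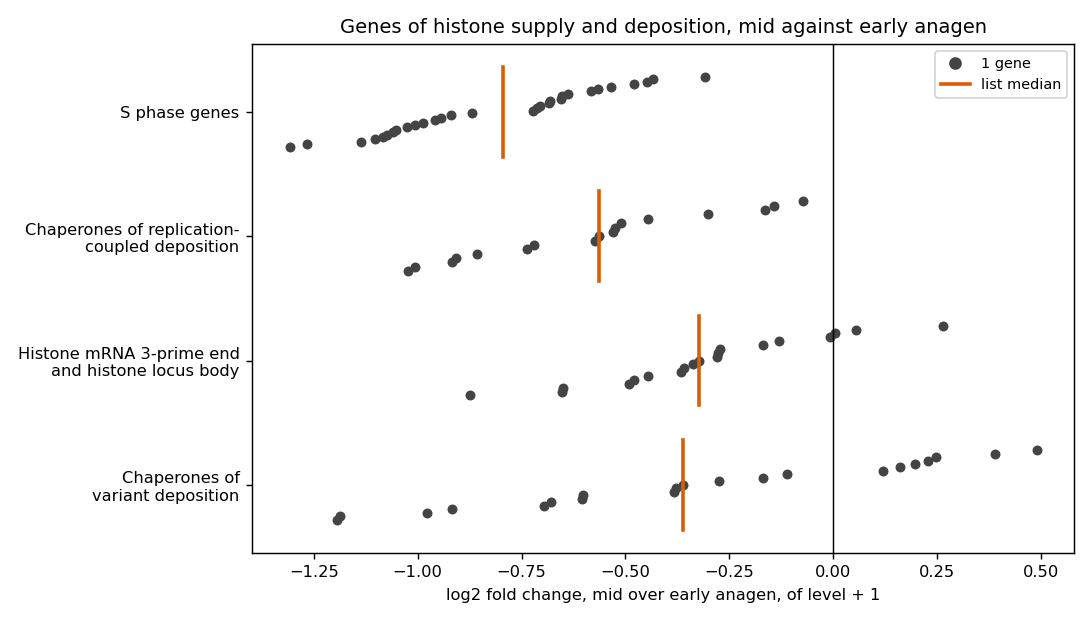
Log2 fold change of level + 1, mid over early anagen (x axis), of each gene of 4 lists (y axis), 1 point a gene, with the list median as a vertical bar. All S phase genes lie left of 0, with medians of -0.80, -0.56, -0.32 and -0.36 (CENPA included) from the top list to the bottom one, and the variant chaperones reach from -1.19 to 0.49.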

How the data were processed

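The 4 RNA-seq libraries of cultured goat cells were prepared with an Ultra RNA kit from NEB, per the labels' protocols. The authors deposited 1 value per gene and library, a signal that is a length-normalised abundance and not a count. Per the submitters' processing notes the tools were kallisto 0.46.1 and sleuth 0.30.0. No build, annotation or way of combining transcripts is given in the sources used here. Depth is unknown, so no counting interval is given.

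Values were tested as log2(value + 1) with limma 3.58.1 in R 4.3.3, with an intensity trend, phase as the only term and Benjamini-Hochberg adjustment over all 12486 genes at 1 or more in at least 2 libraries (threshold 0.05). An exact permutation test of 2 against 2 libraries cannot go below 0.333 and was not used. Gene spans and neighbours came from the RefSeq table of ARS1.2, which held 20294 of the genes and all 66 members. The fit was tested on simulated data. Every tested replacement variant and replication-dependent gene is named. Each supply list gives the 4 members with the smallest p and SLBP, and other names are said to be chosen later. The members and lists were chosen with earlier results of these data known. No table of histone sequences was at hand, so none are printed.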

Additional observations from a re-analysis of the deposited data

Results flagged for a closer look

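In 5 tested histone genes the mid over early log2 fold change had opposite signs in the female and the male pair of libraries. The difference between the pairs was not tested, since each pair holds 1 library per phase. For LOC108636012 (H3.3-like) it was -0.70 between the female and 0.75 between the male libraries. For LOC102182848 (H3.3-like) it was 0.74 in the female and -0.95 in the male pair. For LOC108633924 (H3-like centromeric protein A) it was -1.20 in the female and 0.10 in the male pair. For LOC102179758 (H2B type 1-N) it was -0.17 in the female and 0.13 in the male pair, and for LOC102189503 (H3.3) -0.055 in the female and 0.00037 in the male pair.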

How the results depend on the processing

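The counting error of the lowest genes is unknown, since depth is. No histone gene was called with pseudocounts of 0.1 or 5, no filter, a filter of 5, the span trend removed or members at 5 or more alone, where 9, 9, 19 of 56, 6 of 12, 7 and 7 of 12 had an unadjusted p under 0.05 in limma, beside 22.2% to 29.7% of all genes under these settings. On a common total 3 were called (H2A.Z, H2A type 2-C and the H2B type 1 gene LOC102182181), and all-gene calls numbered 687, while the median log2 fold change of all genes was 0.32 in place of 0.01. A pseudocount of 0.1 gave 18 calls over all genes and no filter gave 0, with 3843 under 0.05 unadjusted. With the replicate block, the number being also the sex, 8 histone genes were called, all lower (H2A.Z, H2AX, H2A.V, H2A.J, H1.0, H2A type 2-C, H2B type 1-M and LOC102182181), with adjusted p from 0.0165 to 0.0359, beside 6.93% of all genes called lower and 1782 calls in all. The deviations of libraries with the same number correlated at 0.292 across genes, over only 2 pairs, and nothing says that they pair animals.

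Leaving out each library gave 0 to 4 histone calls and 0 to 628 calls over all genes. Without an early library there were 0. Without the mid female library there were 4, namely H2A.Z, H2AX, H2A.J and LOC102182181, and without the mid male library 4, namely H2AX, LOC102182181, LOC108633924 and, higher, LOC108634231. The lone library is then assumed to vary like the others. The replication-dependent median ran from -0.69 to -0.30 and the variant median from -0.73 to -0.55.

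The replication-dependent median was -0.71 with a pseudocount of 0.1, -0.21 with 5, -0.37 with no filter, -1.13 with a filter of 5 or a mean of at least 5 (the midpoint of 2 genes, LOC102182181 at -2.72 and LOC102171395 at 0.47), -0.26 on a common total, -0.14 with the span trend removed and -0.42 without LOC102171676. The variant median was -0.37 with a pseudocount of 5, -0.23 with no filter, -0.67 with a filter of 5 or a mean of at least 5, -0.24 on a common total, -0.16 with the span trend removed and -0.92 with the H3.3 genes summed. The mid minus early difference in the variants' percent of the histone level was 2.36 points, 1.17 to 3.54 points with a library left out, and 0.25 points without LOC102182181. The sum of the H3.3 genes, this gene's omission, LOC102171676's omission and the genes outside the choice were tried after seeing the data. Only HINFP and GSG2 have a symbol, so that restriction gave no histone value, and adjusted levels have no percent, so the span trend was not run there.

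Of 208 log2 fold changes of single genes under the alternatives, 20 changed sign, and the cause was not tested. On a common total these were LOC102179758 at 0.22, LOC102182848 at 0.043, LOC102189503 at 0.31, LOC102190909 at 0.17 and LOC106503502 at 0.22. With the span trend removed they were LOC102179758 at 0.12, LOC102182848 at 0.42, LOC102184017 at 0.032, LOC102189503 at 0.087, LOC102190909 at 0.036 and LOC106503502 at 0.32. With a library left out, LOC102179758 ran from -0.13 to 0.098, LOC102182848 from -0.62 to 0.23, LOC102189503 from -0.17 to 0.11, LOC106503502 from -0.10 to 0.0080, LOC108633924 from -1.22 to 0.12 and LOC108636012 from -0.34 to 0.39.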

Other observations

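The replication-dependent genes that passed the filter were mostly those with long annotated spans. Of the 36 with a span up to 1500 bp in the RefSeq table, 3 passed the filter, against 6 of the 10 with a longer span. The H4 gene LOC106503502, with 1503 bp, lies just over that limit. The gene described only as histone H3, LOC102180554, was at 0.180 and 0.199 in the mid and 0.0917 and 0.332 in the early libraries. Without their 2 main genes, the H3.3-like genes held the rest of the H3.3 sum, of which those 2 made up 75.5% (female) and 74.4% (male) at mid anagen and 78.7% and 82.6% at early anagen.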
